A study of Mus musculus with 28 samples.

Results

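The vomeronasal type 2 receptors (V2Rs) of the mouse are encoded by the Vmn2r genes, and their place relative to H3K9me2 domains was followed in embryonic stem cells with and without degradation of the histone methyltransferase EHMT2. Members were the protein-coding autosomal genes of the mm10 genome whose symbol starts with Vmn2r. The rule found 121 genes among 20807 autosomal protein-coding genes of the GENCODE M21 annotation. The symbols of 2 of them, Vmn2r-ps159 and Vmn2r-ps130, mark pseudogenes, but both are annotated as protein-coding and were kept. A start in a domain meant that the outermost 5′ base of the annotated gene lay between the first and last base of a deposited H3K9me2 domain.

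V2Rs are G protein-coupled receptors with a large extracellular domain that binds peptides and proteins. They work in sensory neurons of the basal layer of the vomeronasal organ, which detects pheromones, and signal there through the G protein subunit encoded by Gnao1 and the channel Trpc2. Most such neurons use one or a few V2Rs, whereas the subfamily of Vmn2r1 and its relatives is co-expressed broadly with the others. Like olfactory receptors, V2R genes arose by local duplication and stand in clusters. H3K9me2, dimethylated lysine 9 of histone H3, marks repressed chromatin and is laid down by EHMT2 and its partner EHMT1.

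H3K9me2 was profiled by ULI-NChIP, immunoprecipitation of native chromatin from few cells, in a mouse embryonic stem cell (mESC) line derived from KH2 cells, which are C57BL/6J x 129S1 F1. All cells carried a degron (dTAG) with mCherry at endogenous Ehmt2. For the sorted cells the study's methods also name a MERVL-GFP reporter. This reporter lights up in 2-cell-like cells (2CLCs), the small fraction of a culture with features of the 2-cell embryo. Reporter cultures received DMSO, the solvent control, or dTAG-13, which degrades the tagged EHMT2, for 72 h. They were sorted by GFP into mESC DMSO, mESC dTAG, 2CLC DMSO and 2CLC dTAG, each with 3 immunoprecipitation and 3 input libraries. A bulk mESC group (DMSO, 24 h) added 2 pairs of libraries, for 28 libraries in the series. The labels mention the retinoic acid receptor agonist TTNBP for 2 unnamed replicates, and the study's methods describe it for all sorted cells, so whether the sorted sets mix cells with and without it is not known. The reporter line is described as a clone, so the sorted groups share 1 genetic background and are not separate animals. The files held 5 sets of domain positions with no value per library. The names of 4 gave a cell state and a treatment (the sorted sets), and the remaining set gave neither and is called the unnamed set. With 1 set per condition there was no spread between replicates and no test, the depth behind the domains was unknown, and neither EHMT2 loss nor cell identity could be checked from domain positions.

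Vmn2r genes lay in H3K9me2 domains almost throughout, in DMSO and in dTAG sets. Domain positions give no level of the mark, which the study reports as reduced genome-wide by EHMT2 depletion in both cell states. A start in a dTAG domain thus does not show that the level of H3K9me2 there was kept. In mESC DMSO 119 of 121 starts were in domains, or 98.3%, where 21.4% of all autosomal protein-coding starts were. In mESC dTAG the count was 117, or 96.7%, against 22.8% of all genes. In 2CLC DMSO 120 starts were in domains, or 99.2%, against 22.1%. In 2CLC dTAG 119 were, or 98.3%, against 25.5%. The unnamed set held 106 starts, or 87.6%, against 29.8%. A total of 117 members, or 96.7%, were in domains of all 4 sorted sets, 1 was in none, and 3 varied. Over all autosomal protein-coding genes 14.4% were in all 4 sorted sets.

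The change with dTAG-13 was counted separately in mESCs and 2CLCs. In mESCs 2 of the 119 Vmn2r starts in DMSO domains were outside dTAG domains, or 1.68%, and these were Vmn2r2 and Vmn2r88. The share over all autosomal protein-coding starts in mESC DMSO domains was 22.7%. None of the 2 Vmn2r starts outside mESC DMSO domains entered a dTAG domain, where 7.92% of all outside starts did. In 2CLCs 1 of the 120 Vmn2r starts in DMSO domains was outside dTAG domains, or 0.833%, and this was Vmn2r117, against 18.4% of all genes. The start outside 2CLC DMSO domains, that of Vmn2r-ps159, did not enter a dTAG domain, where 9.60% of all outside starts did. Neighbouring members shared domains, so members are not independent observations: the 119 starts in mESC DMSO lay in 26 domains and the 117 in mESC dTAG in 23, and in 2CLCs the 120 and 119 starts lay in 23 and 25.

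Other chemosensory receptor families gave reference values. Of the 208 Vmn1r genes, which encode the vomeronasal type 1 receptors, 186 were in all 4 sorted sets, or 89.4%. In the single sets 91.3% (DMSO) and 99% (dTAG) of Vmn1r starts were in domains in mESCs, and 99.5% in either 2CLC set. In mESCs 2 Vmn1r starts left domains with dTAG-13, or 1.05% of those in DMSO domains. All 18 Vmn1r starts outside mESC DMSO domains entered, where 7.92% of all outside starts did. In 2CLCs 1 left, or 0.483%, and the 1 start outside DMSO domains entered. Of the 1128 olfactory receptor (Olfr) genes 882 were in all 4 sorted sets, or 78.2%. In mESCs 83 Olfr starts left domains, or 8.22% of those in DMSO domains, and in 2CLCs 58 left, or 5.75%. In the other direction 36 of 118 Olfr starts outside DMSO domains entered in mESCs and 26 of 119 in 2CLCs. Vmn2r had a higher share than Vmn1r in mESC DMSO and in all 4 sets jointly, and Vmn1r had the higher share in the other 3 sorted sets and the lower leaving shares, with none of these differences tested.

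**Figure D1:**
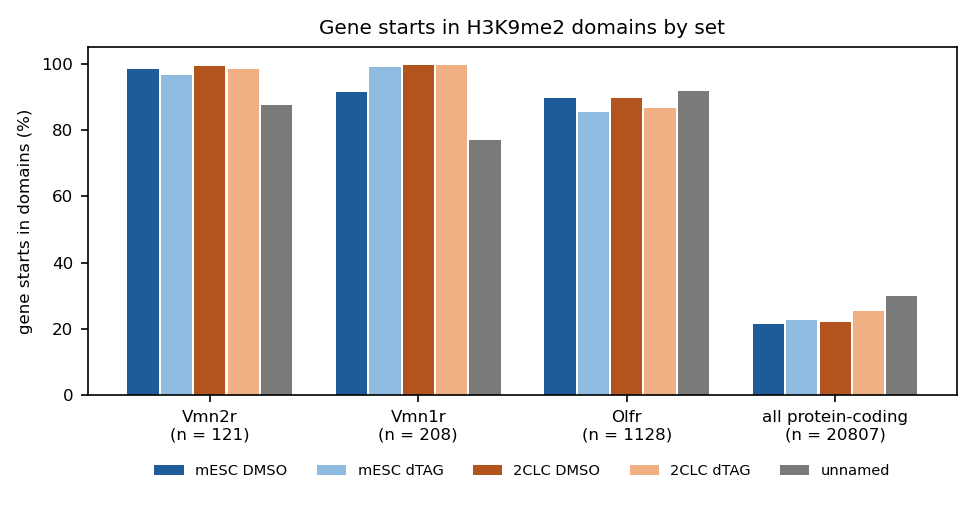
Percent of gene starts in H3K9me2 domains (y axis) for Vmn2r, Vmn1r, Olfr and all autosomal protein-coding genes, with 1 bar for each of the 5 domain sets and no error bars because each set is 1 call. Vmn2r bars lie between 96.7 and 99.2% in the 4 sorted sets and at 87.6% in the unnamed set, while bars of all protein-coding genes lie between 21.4 and 29.8%.

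Members fell into 17 clusters on 8 chromosomes when genes more than 1 Mb apart were split, and 5 clusters held 1 member. Chromosome 7 held 51 members and chromosome 17 held 32. The clusters, from the first gene's start to the last gene's end, spanned 13607 kb. In mESCs 95.7% of these bases were in DMSO domains and 98.2% in dTAG domains, and in 2CLCs 98.5 and 98.2%, with 85.8% in the unnamed set. Of the autosomal sequence as a whole, the shares were 52.4 and 44.6% in mESCs, 49.7 and 46.7% in 2CLCs, and 63.3% in the unnamed set. In mESCs the covered share was thus lower with dTAG-13 over the autosomes and higher over the summed bases of the Vmn2r clusters. From DMSO to dTAG the rise was largest at Vmn2r57 to Vmn2r63 (87.3 to 99.8%) and Vmn2r111 to Vmn2r117 (83.1 to 93.8%). Smaller rises were seen at Vmn2r1 to Vmn2r7 and Vmn2r90 to Vmn2r110. Coverage fell at Vmn2r8 to Vmn2r17 (100 to 97.1%), Vmn2r80 to Vmn2r83 (100 to 98.5%) and Vmn2r88 to Vmn2r89 (100 to 99.5%). It did not change at the other clusters. The share of Vmn2r starts in domains fell from 98.3 to 96.7%. In 13 of the 17 clusters every start was in a domain of all 4 sorted sets.

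**Figure D2:**
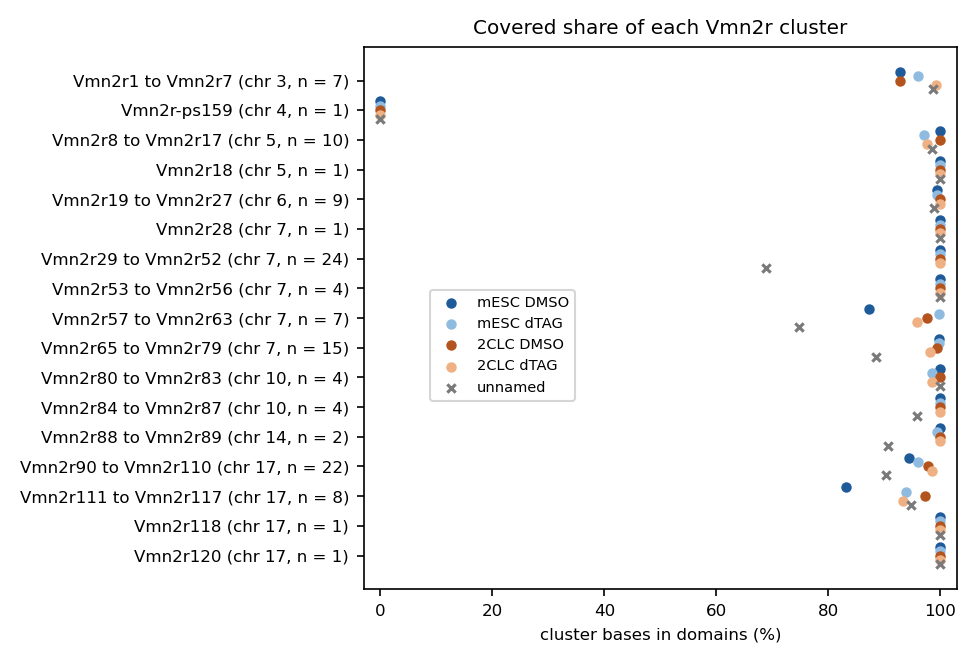
Percent of the bases of each Vmn2r cluster in H3K9me2 domains (x axis) for the 17 clusters (y axis, with chromosome and number of members), with a circle for each sorted set and a cross for the unnamed set. The cluster of Vmn2r-ps159 is at 0% in every set, and among the other clusters the lowest sorted value is 83.1%, in mESC DMSO at Vmn2r111 to Vmn2r117.

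The largest cluster, Vmn2r29 to Vmn2r52 on chromosome 7 (chr7:7231327-10176573, 24 members), lay whole inside 1 domain in each sorted set. That domain was 5275 kb wide with DMSO and 5590 kb with dTAG-13 in mESCs, and 5290 and 5740 kb in 2CLCs. It also held 19 Vmn1r starts and the starts of 8 Zscan4 genes, which are marker genes of the 2-cell-like state. In both DMSO sets it ended at position 12479645, and after a gap of 1 bin (5 kb) a separate domain, 285 kb (mESCs) or 305 kb (2CLCs) wide, held the next cluster, Vmn2r53 to Vmn2r56. In both dTAG sets that gap was absent and the same domain held 28 Vmn2r starts. The domain held 59 protein-coding starts in all in either DMSO set, 64 in mESC dTAG and 70 in 2CLC dTAG.

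Whole coverage in all 4 sorted sets was also seen at Vmn2r18 on chromosome 5, Vmn2r28 and Vmn2r53 to Vmn2r56 on chromosome 7, Vmn2r84 to Vmn2r87 on chromosome 10, and Vmn2r118 and Vmn2r120 on chromosome 17. At Vmn2r19 to Vmn2r27 on chromosome 6 at least 99.5% was covered in each sorted set. This cluster holds Vmn2r26, whose receptor responds to peptides that bind class I major histocompatibility complex proteins. The start of Vmn2r26 (chromosome 6, 124024568, plus strand) lay 352 kb (DMSO) and 322 kb (dTAG) from the nearest domain edge in mESCs and 372 and 232 kb in 2CLCs, inside domains of 1035, 1005, 1160 and 1360 kb. At Vmn2r65 to Vmn2r79, the second cluster by members on chromosome 7 with 15, coverage ran from 98.1% in 2CLC dTAG to 99.8% in both mESC sets. At Vmn2r80 to Vmn2r83 on chromosome 10 it was 100% in both DMSO sets and 98.5% in both dTAG sets. The 22 members from Vmn2r90 to Vmn2r110 on chromosome 17 were all in domains of the sorted sets, with 94.5 to 98.6% of the bases covered.

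The domains that held Vmn2r starts were wide. The median width over members was 1035 kb in the DMSO set and 1980 kb in the dTAG set of mESCs, 1312 and 1020 kb in those of 2CLCs, and 345 kb in the unnamed set. Over all protein-coding genes with a start in a domain it was 650, 380, 755, 255 and 340 kb in the same order. The width around a Vmn2r start ranged from 35 to 5590 kb in mESC dTAG and from 80 to 5275 kb in mESC DMSO. Over the autosomes the median domain was 145 kb wide in mESC DMSO and 60 kb in mESC dTAG, and 120 and 55 kb in 2CLC DMSO and dTAG. Domains were thus narrower in dTAG sets genome-wide, while in mESCs the median around Vmn2r starts was wider and in 2CLCs it was narrower. The median distance from a Vmn2r start to the nearest edge of its domain was 215 (DMSO) and 324 kb (dTAG) in mESCs and 275 and 247 kb in 2CLCs, against 109, 54.9, 119 and 42.5 kb over all genes. The medians rest on a few shared domains, and the order in mESCs turned when domains 10 kb or less apart were joined: the Vmn2r median was then 2990 kb in mESC DMSO and 2530 kb in mESC dTAG, and in 2CLCs 3050 and 2065 kb.

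**Figure D3:**
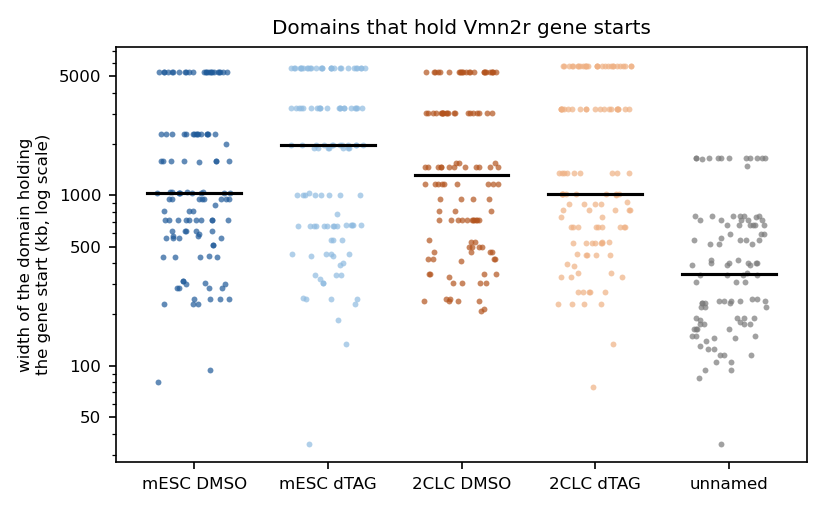
Width in kb of the domain that holds each Vmn2r start (y axis, log scale) in the 5 sets (x axis), with a point per member, spread sideways at random, and a line at the median. Most points at the same height share a domain, and the top row in each sorted set, at 5275 to 5740 kb, is the chromosome 7 domain.

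The members with a change were few and are given singly. Vmn2r2, of the broadly co-expressed subfamily, lies on the minus strand (chr3:64115278-64141928, ENSMUSG00000043897.13). With DMSO its start was in a 435 kb domain in mESCs and a 465 kb domain in 2CLCs, and with dTAG-13 in a 270 kb domain in 2CLCs. In mESC dTAG the start lay in the middle of a 25 kb gap, 12.5 kb from the domain on either side, and 53.1% of the gene body was covered. Vmn2r1, the first gene of this cluster and also co-expressed broadly, had its start in domains of 435 (DMSO) and 135 kb (dTAG) in mESCs and of 465 and 270 kb in 2CLCs. The gap in mESC dTAG thus took in the start of Vmn2r2 and left Vmn2r1 wholly covered.

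Vmn2r88 lies on the plus strand (chr14:51410820-51420721, ENSMUSG00000000606.18) as the first of a pair with Vmn2r89. In mESC dTAG its start was 0.259 kb outside the edge of a domain that covered 97.4% of the gene body, at a gap of 10 kb. The 0.259 kb is less than the 5 kb bin on which domains were placed. In mESC DMSO, 2CLC DMSO and 2CLC dTAG the start was 145, 230 and 220 kb inside domains of 580, 530 and 525 kb. Vmn2r89 was in domains of all 4 sorted sets.

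Vmn2r117 lies on the minus strand (chr17:23455173-23479699, ENSMUSG00000091407.2) as the last member of its cluster, next to Vmn2r116, the receptor for the male tear peptide ESP1. Vmn2r116 (chr17:23384604-23404422, plus strand) was whole inside domains in each set. In mESC DMSO, mESC dTAG and 2CLC dTAG the domain over Vmn2r116 ended at position 23431983, so that the start of Vmn2r117 was 47.7 kb outside it and none of its body was covered. In 2CLC DMSO the domain, 345 kb wide, went on past Vmn2r117, whose start was 57.3 kb inside. The unnamed set resembled 2CLC DMSO here, with a domain of 340 kb and the start 57.7 kb inside. Vmn2r117 was thus in a domain in 1 of the 4 sorted sets and its neighbour in all 4.

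Vmn2r-ps159 (chr4:156331103-156339499) was outside domains in every set, with 0% of its body covered. The nearest domain was 8477 (DMSO) and 147 kb (dTAG) away in mESCs, and 392 and 132 kb away in 2CLCs. It stands near the end of chromosome 4, with no other member within 1 Mb. Vmn2r125, which is not annotated as protein-coding, starts close by at position 156344200 and was also outside domains in every set. Runs of unknown bases lie on both sides, among them 156256012 to 156306011 and 156358117 to the chromosome end. Without it, all remaining members were in 2CLC DMSO domains.

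The sequences just before these starts are shown because the members with and without a domain can then be compared base by base. Each is the 250 bases upstream of the annotated start in GRCm38.p6, written 5′ to 3′ on the gene's strand, with each CpG in capitals, since CpG is the dinucleotide that carries DNA methylation.
Vmn2r2, chr3:64141929-64142178, strand -: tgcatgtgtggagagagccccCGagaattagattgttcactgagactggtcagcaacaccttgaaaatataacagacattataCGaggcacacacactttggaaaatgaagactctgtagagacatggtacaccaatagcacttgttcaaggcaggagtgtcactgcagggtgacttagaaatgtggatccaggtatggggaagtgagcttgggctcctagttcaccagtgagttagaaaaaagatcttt
Vmn2r88, chr14:51410570-51410819, strand +: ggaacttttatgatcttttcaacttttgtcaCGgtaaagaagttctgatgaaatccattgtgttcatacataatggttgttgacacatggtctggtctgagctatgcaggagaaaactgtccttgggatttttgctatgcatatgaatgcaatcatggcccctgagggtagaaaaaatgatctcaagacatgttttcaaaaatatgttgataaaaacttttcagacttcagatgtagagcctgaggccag
Vmn2r116, chr17:23384354-23384603, strand +: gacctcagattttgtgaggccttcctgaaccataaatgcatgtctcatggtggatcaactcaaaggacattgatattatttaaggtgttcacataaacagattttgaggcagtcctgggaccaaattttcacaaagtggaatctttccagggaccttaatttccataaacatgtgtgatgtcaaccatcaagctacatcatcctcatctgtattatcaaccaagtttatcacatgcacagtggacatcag
Vmn2r117, chr17:23479700-23479949, strand -: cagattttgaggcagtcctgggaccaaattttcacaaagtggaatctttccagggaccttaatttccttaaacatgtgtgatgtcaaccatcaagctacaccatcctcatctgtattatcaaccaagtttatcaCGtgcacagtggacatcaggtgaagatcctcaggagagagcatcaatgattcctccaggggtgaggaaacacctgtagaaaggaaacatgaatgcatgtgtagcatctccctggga
Vmn2r116 and Vmn2r117, which differed in domain state, shared a stretch of upstream sequence: bases 98 to 250 of the Vmn2r116 window aligned to bases 1 to 153 of the Vmn2r117 window with 150 of 153 bases identical, or 98%. The stretch was shifted between the windows, and the bases next to the Vmn2r117 start were not part of it. Closeness over the whole window was also scored by edit identity, the percent of the 250 bases left after subtracting the edits of an end-to-end alignment. By this score the closest member to Vmn2r117 was Vmn2r44, with 60.4%, and the closest to Vmn2r116 was Vmn2r112, with 93.6%. The score counts a shift between windows as edits, so it does not reflect the stretch shared by Vmn2r116 and Vmn2r117. Vmn2r116 held 0 CpG in this window, Vmn2r117 and Vmn2r88 held 1 each and Vmn2r2 held 2.

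Some members kept their start in all 4 sorted sets but lay close to an edge. Vmn2r5 (chromosome 3, minus strand) had its start 0.416 kb inside a domain in both mESC DMSO and 2CLC DMSO, at the edge of a 55 kb gap, so that 1.96% of its body was covered in either set. In mESC dTAG and 2CLC dTAG the same gene was covered over 100% of its body, with the start 285 and 235 kb inside. Vmn2r8 and Vmn2r9 on chromosome 5 went the other way. Both were wholly covered by a 715 kb domain in the DMSO sets. Vmn2r8 was covered over 45.3% of its body in mESC dTAG and 100% in 2CLC dTAG, and Vmn2r9 over 42.3% and 13.4%, with the Vmn2r9 start 6.45 and 1.45 kb inside. Vmn2r72 on chromosome 7 was 4.45 kb from an edge in mESC DMSO and 2CLC dTAG, and Vmn2r113 on chromosome 17 was 6 kb from an edge in 2CLC DMSO, both with the whole body covered. Counted by 50% of the gene body instead of the start, Vmn2r8 and Vmn2r9 left domains and Vmn2r5 entered one in mESCs, while Vmn2r2 and Vmn2r88 stayed. In 2CLCs Vmn2r9 and Vmn2r117 left and Vmn2r5 entered.

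Gaps between domains inside the clusters were few, and only a small part of them was common to all 4 sorted sets. In mESCs the clusters held 11 inner gaps with DMSO and 9 with dTAG-13, and in 2CLCs 11 and 13. Of these 3, 6, 5 and 9 were 1 bin wide. Over the autosomes 25, 20.2, 25.1 and 20.2% of gaps were 1 bin wide. The widest inner gap was 150, 115, 65 and 55 kb in the same order, and 855 kb in the unnamed set. Leaving out Vmn2r-ps159, 162 bins of the clusters were outside domains in at least 1 sorted set, and 8 of them in all 4. The pair with the most shared bins was mESC DMSO and mESC dTAG, with 36 bins, or 31% of the 116 bins outside in mESC DMSO and 72% of the 50 in mESC dTAG. The bins shared in mESCs included the gap after Vmn2r90 and the cluster end at Vmn2r117. Sets of unlike cell state also shared bins. In mESC DMSO and 2CLC DMSO 27 bins were shared, or 23.3% of 116 and 71.1% of 38. In 2CLC DMSO and 2CLC dTAG 9 bins were shared, or 23.7% of 38 and 19.1% of 47.

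The cluster Vmn2r57 to Vmn2r63 on chromosome 7 (chr7:41395945-42933822) had 87.3% of its bases in mESC DMSO domains and 99.8% in mESC dTAG domains. In 2CLCs the shares were 97.7% in DMSO and 95.8% in dTAG. Its 7 Vmn2r starts were in domains of all 4 sorted sets, and both gaps of mESC DMSO, 150 and 45 kb wide, touched no member. The 150 kb gap, at chr7:41499607-41649606, held the starts of AW146154, Gm6871, 2610021A01Rik and the zinc finger gene Zfp788. In mESC dTAG 1 domain of 1900 kb held the starts of all 4 of these genes and of the 7 receptors. In 2CLC DMSO the starts of Gm20449, AW146154, Zfp141 and Zfp976 were in gaps of 5 or 10 kb, and in 2CLC dTAG a 55 kb gap reached into the body of Vmn2r58, of which 62.6% was covered.

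The cluster Vmn2r111 to Vmn2r117 on chromosome 17 (chr17:22544504-23479699) had 83.1% of its bases in DMSO and 93.8% in dTAG domains of mESCs, and 97.3 and 93.3% in those of 2CLCs. The start of Zfp40, a zinc finger gene between the receptors, was outside in mESC DMSO and inside in the other sorted sets. In 2CLC dTAG the cluster's last 47.7 kb, at Vmn2r117, were uncovered, and in 2CLC DMSO they were covered. At both clusters mESC coverage was higher in dTAG and 2CLC coverage lower.

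The cluster Vmn2r90 to Vmn2r110 showed the one wide gap common to the sorted sets. Between the first member, Vmn2r90, and the next, it was 145 kb (DMSO) and 115 kb (dTAG) wide in mESCs, and 65 and 40 kb wide in 2CLCs. It held the starts of Has1, which encodes a hyaluronan synthase, and of the formyl peptide receptors Fpr1, Fpr2 and Fpr3 in each sorted set, and that of Spaca6, a sperm protein gene, in both mESC sets. Fpr1 and Fpr2 act in immune cells. The relatives Fpr-rs3, Fpr-rs4 and Fpr-rs7, which are expressed in vomeronasal neurons, were inside domains of all 4 sorted sets, and Fpr-rs6 in all but mESC DMSO.

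**Figure D4:**
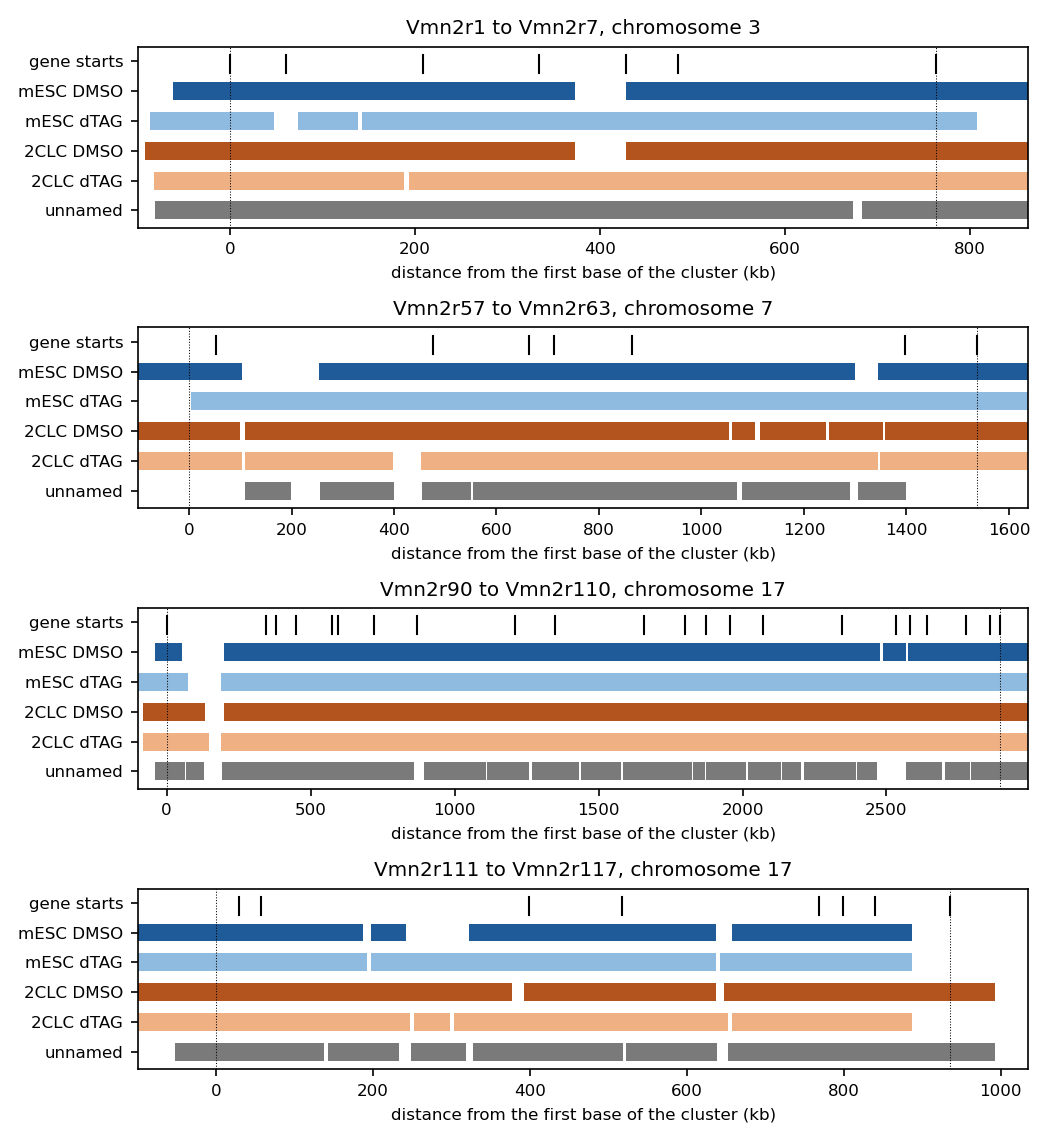
Domains (bars) of the 5 sets along 4 Vmn2r clusters, with Vmn2r starts as ticks on top, against the distance in kb from the first base of the cluster. Dotted lines mark the ends of the cluster, and domains are drawn up to 100 kb beyond them. The 25 kb gap at Vmn2r2, the 150 kb gap in mESC DMSO at Vmn2r57 to Vmn2r63, the gap after Vmn2r90 in each sorted set and the domain ends before Vmn2r117 are visible.

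The clusters held 45 further protein-coding starts, so coverage of the receptors was compared with that of the genes between them. In mESCs 33 of them were in DMSO domains and 39 in dTAG domains, and in 2CLCs 37 and 39. In all 4 sorted sets 28 were in domains, 13 varied and 4 were in none. The 13 that varied were Tmed11, Gm20449, AW146154, Gm6871, 2610021A01Rik, Zfp788, Zfp141, Zfp976, Gm17067, Folh1, Spaca6, Fpr-rs6 and Zfp40. Tmed11, next to Vmn2r8, was outside in mESC dTAG, and Folh1, a peptidase gene next to the last members on chromosome 7, was outside in 2CLC dTAG. The 15 Olfr genes inside the cluster Vmn2r65 to Vmn2r79 were in domains of all 4 sorted sets. Members thus varied in 3 of 121 cases and their non-member neighbours in 13 of 45, without a test, since neighbours share domains. Over all autosomal protein-coding genes 3856 of 20807 varied, with 22 of 208 Vmn1r and 187 of 1128 Olfr genes.

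Other genes tied to the vomeronasal organ, among them ligand, signalling and regulator genes, were placed in the same way, from a list of 77 autosomal genes. The list was not limited to genes that act with V2Rs. The ligands resembled the receptors. All 22 Mup genes, which encode the major urinary proteins, were in domains of each sorted set, and so were the 15 Esp genes for exocrine gland peptides, except Esp4 in mESC dTAG. Of all autosomal protein-coding genes 67.1% were in no sorted set. Of 10 signalling genes 8 were in none, near that share, among them Trpc2, Gnao1, Gnai2 and the olfactory marker protein gene Omp. Kcnmb4, a potassium channel subunit gene, was in a domain in mESC dTAG alone and Ano2, a calcium-activated chloride channel gene, in mESC DMSO alone.

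A further group held H2-M genes, for class I-like molecules of the vomeronasal organ that accompany V2Rs at the cell surface. It also held B2m, which encodes no such molecule and was in no sorted set. Of its 10 genes 5 were in DMSO and 4 in dTAG domains of mESCs, and 8 and 5 in those of 2CLCs. H2-M10.1 was in domains of both 2CLC sets, H2-M10.2 and H2-M10.3 in 2CLC DMSO alone and H2-M10.5 in both DMSO sets. Of 13 regulators and wiring genes 9 were in no sorted set, also near the share over all genes, including Tfap2e, whose factor AP-2 epsilon specifies basal vomeronasal neurons. Robo2, an axon guidance receptor gene, and Rtp2 were in mESC DMSO domains alone, Kirrel3 in 2CLC DMSO alone and Atf5 in 2CLC dTAG alone. Of the 77 genes, 43 were in all 4 sorted sets, 22 in none and 12 varied. Over all autosomal protein-coding genes 14.4% were in all 4. Of the 43, 22 were Mup genes and 14 Esp genes, and none was a signalling or regulator gene. The Mup genes stand together on chromosome 4 and the Esp genes on chromosome 17, so they are not independent.

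The unnamed set placed 15 members outside domains, and 14 of these were inside in all 4 sorted sets. It lay on another grid and could not be given a group. Vmn2r33, Vmn2r34, Vmn2r35, Vmn2r36, Vmn2r41, Vmn2r42 and Vmn2r43 fell in one 855 kb gap at chr7:7495639-8350638, inside the region that was 1 domain in each sorted set. The others were Vmn2r57, Vmn2r63, Vmn2r67, Vmn2r84, Vmn2r96, Vmn2r101, Vmn2r105 and Vmn2r-ps159. Vmn2r101 and Vmn2r84 lay 0.162 and 0.558 kb outside an edge, in gaps of 1 bin. In this set the clusters touched 63 domains, against 25 to 29 in the sorted sets.

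Repeated sequence in the clusters was measured with 50-mers. A 50-mer was counted as repeated when its sequence, on either strand, occurred again on the same chromosome. In the Vmn2r clusters 33.5% of 50-mers were repeated, against 9.44% in the rest of the same 8 chromosomes. The share was 85.3% at Vmn2r29 to Vmn2r52 and 89.2% in the 855 kb gap of the unnamed set. It was 9.63% at Vmn2r90 to Vmn2r110 and 3.73% at Vmn2r120, whose starts were also in domains of the 4 sorted sets. Soft-masked bases, those of interspersed and simple repeats, made up 52.5% of the clusters and 34.2% of the rest. GC content was 38.1% in the clusters and 41.9% outside them. In the 150 kb gap of mESC DMSO on chromosome 7, 8.64% of 50-mers were repeated, and in the 145 kb gap after Vmn2r90 2.63% were. Multi-mapping reads were assigned in the authors' alignment, and the part of repeats in the calls was not tested.

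**Figure D5:**
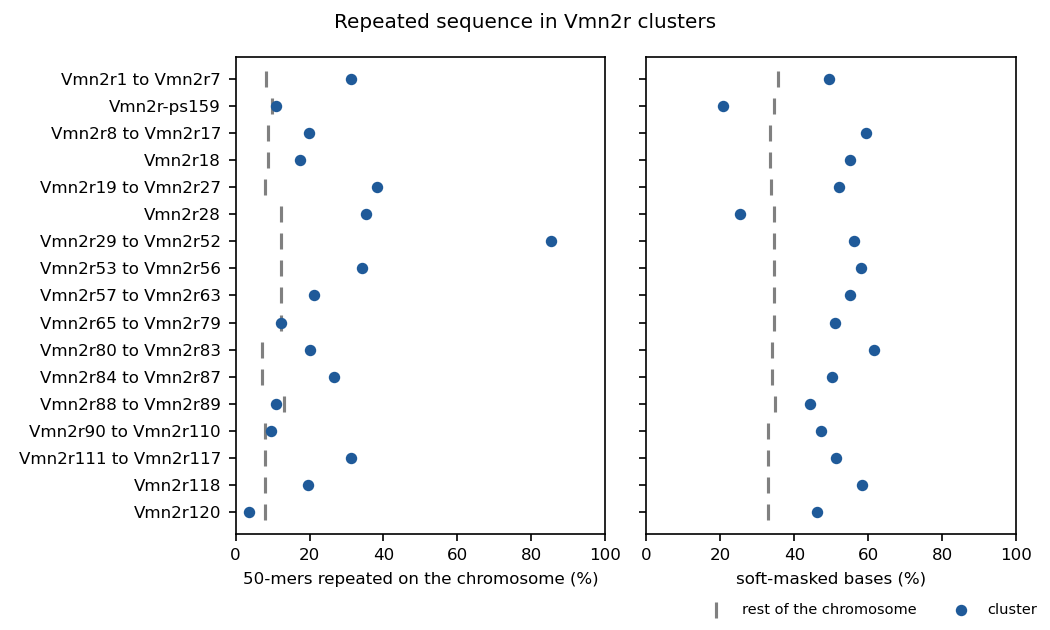
Percent of 50-mers repeated on the same chromosome (left) and of soft-masked bases (right) for each of the 17 Vmn2r clusters (circles), with the rest of that chromosome as a grey bar. The cluster Vmn2r29 to Vmn2r52 stands at 85.3% repeated 50-mers, and Vmn2r120 at 3.73%.

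The 250 bases upstream of each annotated start were described over all members. These windows depend on the annotation. For the 114 members with a RefSeq start, it lay a median of 104 bp and at most 125163 bp from the start used. The windows need not be matching parts of the promoters. Their median GC content was 38.4%, against 54.4% over all autosomal protein-coding genes. The median window held 1 CpG and the highest 4, and 48 of 121 windows, or 39.7%, held none. Over all genes the median was 8 CpG and 7.38% of windows held none. Windows of Vmn1r and Olfr genes were alike in this, with medians of 1 CpG. The letters TATAAA, searched on both strands, were in 18.2% of Vmn2r windows, 30.3% of Vmn1r, 29.8% of Olfr and 11.6% of all windows. TAATTA, a homeodomain core that reads the same on both strands, was in 14, 21.6, 22.5 and 4.9% in the same order, so Vmn2r was the lowest of the 3 receptor families for either motif. The edit identity to the closest other member had a median of 80.8% and was lowest at Vmn2r25, with 48.4%. For 30 members it was 90% or more, none was identical, and for 98 of 121 the closest member stood in the same cluster.

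The letters GCCNNNGGC, to which AP-2 factors bind and which read the same on both strands, were searched because AP-2 epsilon is a regulator of the neurons that use V2Rs. They were in 20 Vmn2r windows, or 16.5%, against 14.7% of all windows, 1.44% of Vmn1r windows and 1.86% of Olfr windows. The 20 matches stood in 6 clusters and had 7 different sequences, and 12 of the matches stood in the cluster Vmn2r90 to Vmn2r110. Some are given to show how alike they were, with the match in capitals and its flanks within the window in lower case (GRCm38.p6, on the gene's strand).
Vmn2r15, chr5:109297734-109297762, strand -: cagatgtagaGCCTGAGGCcagaatttcc
Vmn2r88, chr14:51410798-51410819, strand +: cagatgtagaGCCTGAGGCcag
Vmn2r75, chr7:86171911-86171939, strand -: cagatgccaaGCCCAAGGCcagagagtgc
Vmn2r59, chr7:42059243-42059271, strand -: aaatcatggtGCCTCTGGCtagaggagaa
Vmn2r94, chr17:18277874-18277902, strand -: aagtcatagtGCCTTTGGCtagtgaagaa
Vmn2r104, chr17:20048442-20048470, strand -: aagtcatagtGCCTTTGGCtagtgacgaa
Vmn2r15 on chromosome 5 and Vmn2r88 on chromosome 14 shared the same match with the same bases before it, as did Vmn2r-ps159 on chromosome 4. Vmn2r88 and Vmn2r-ps159 were outside domains in at least 1 sorted set, and the other 18 members with a match were inside in all 4. A match is a run of letters and not a bound site.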

How the data were processed

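According to the labels, H3K9me2 ULI-NChIP and input libraries were made from sorted mESCs and 2CLCs (72 h, DMSO or dTAG-13) and bulk mESCs (24 h, DMSO). The authors aligned reads with STAR 2.7.10 so that multi-mapping reads were also assigned, removed duplicates and regions of artificially high signal, scaled coverage with deepTools 3.5.1, and took log2 ratios over input in overlapping windows on a 5 kb grid, ignoring locations without signal (versions from the submitters' processing notes). Domains were seeded and extended by percentiles of this ratio. Whether replicates were pooled was not stated, and a gap between domains can mean a low ratio or no signal. The deposited files hold mm10 positions of these domains, not a level of H3K9me2. If the percentiles were set per set, coverage need not follow the amount of the mark.

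Gene starts (GENCODE M21) and sequence (GRCm38.p6) were compared with the domains in Python 3.11.15 and numpy 2.4.6. Clusters were split at gaps over 1 Mb. A set is 1 call per condition, so no p was computed. RefSeq starts, other definitions of inside, gap limits and left-out chromosomes were tried as alternatives. Scripts were tested on simulated domains. The text names members outside a domain in a sorted set, cluster ends, Vmn2r1, Vmn2r26, Vmn2r116, the 5 starts nearest an edge, and other vomeronasal genes and neighbours that varied. Members in the unnamed set's gaps, Vmn2r58, Vmn2r89, neighbours in no sorted set and genes with shown motifs were chosen after their values were seen. Members and lists were chosen with earlier results of these data known.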

Additional observations from a re-analysis of the deposited data

Results flagged for a closer look

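The covered share of 2 clusters moved in opposite directions in mESCs and 2CLCs, which is why they are given here. At Vmn2r57 to Vmn2r63 the dTAG minus DMSO difference was 12.4 percentage points in mESCs and -1.95 in 2CLCs. At Vmn2r111 to Vmn2r117 it was 10.7 percentage points in mESCs and -4.03 in 2CLCs. With 1 set per condition the differences between cell states were not tested. In the first cluster the gaps of mESC DMSO touched no member, and in the second the 2CLC difference included the domain end before Vmn2r117.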

How the results depend on the processing

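Under other settings 102 recomputed values stayed and 26 moved, where a share moved when it left the 95% Wilson interval of the reported share over members, which are not independent, and a count or width when it changed by over 1.5 times. Adding pseudogenes gave 93.2% of starts in mESC DMSO domains and 92.3% in 2CLC DMSO, with 10 and 14 that entered in mESCs and 2CLCs and 3 that left in 2CLCs. In 2CLC DMSO the share was 100% with RefSeq starts (114 members) and 100% without Vmn2r-ps159, both chosen after seeing the data. In mESCs 1 start left when gaps up to 10 kb were joined. By 50% of the gene body 1 entered in mESCs, and 2 left and 1 entered in 2CLCs. With 5 kb on each side of the start 2 entered in mESCs, and 3 left and 1 entered in 2CLCs. Splitting clusters at 2 Mb gave 82.3, 87.6, 86.4 and 87.7% of bases covered in mESC DMSO, mESC dTAG, 2CLC DMSO and 2CLC dTAG and 75.8% in the unnamed set, with 40 domains in mESC dTAG and 44 in 2CLC DMSO, since longer stretches between clusters are then included. Joined gaps gave median widths of 2990 kb in mESC DMSO, 3050 kb in 2CLC DMSO, 2065 kb in 2CLC dTAG and 850 kb in the unnamed set, and 30 domains in the unnamed set.

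With each chromosome left out in turn, 106 values stayed and 6 moved. The share of starts ranged from 98.6 to 100% in 2CLC DMSO and from 86.4 to 92.9% in the unnamed set, the bases covered from 83.6 to 94.5% in the unnamed set, the starts that left from 1 to 2 in mESCs (1 without chromosome 3 or 14) and from 0 to 1 in 2CLCs (0 without chromosome 17). Chromosome 7 holds the 855 kb gap of the unnamed set.

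Depth is unknown, 1 set stands for 3 libraries, and a start closer to an edge than the 5 kb bin, as at Vmn2r88 and Vmn2r5, is not resolved. No paired analysis was possible because the domain sets carry no value per replicate.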

Other observations

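Vmn2r pseudogenes were outside the rule but bear on the same gene family. The annotation held 114 on the autosomes, of which 100 were in DMSO and 110 in dTAG domains of mESCs, and 97 and 109 in those of 2CLCs. The 78 that lay within the clusters of the protein-coding genes were covered like them, with 76, 77, 76 and 77 in domains. Of the 36 elsewhere, 24, 33, 21 and 32 were in domains in the same order. Among these 9 entered and 0 left domains with dTAG-13 in mESCs, and 12 entered and 1 left in 2CLCs. Over all autosomal protein-coding genes, 7.92% (mESCs) and 9.60% (2CLCs) of starts outside DMSO domains entered, and 22.7 and 18.4% of those inside left. Many of the pseudogenes that entered stood close together on chromosome 13, and in 2CLCs also on chromosome 4, so they are not independent. The pseudogenes away from the receptor clusters thus varied more than the receptors, without a test.

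The pseudogenes Vmn2r-ps15 to Vmn2r-ps20 on chromosome 4 (starts from 145775612 to 147521531) were in domains of mESC DMSO, mESC dTAG and 2CLC dTAG and outside in 2CLC DMSO. On chromosome 13, Vmn2r-ps95 and Vmn2r-ps104 were in domains of both dTAG sets and of neither DMSO set. These genes were picked after their values were seen. The part of repeated sequence and of neighbouring genes in their state was not tested.

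Vmn2r121, on chromosome X and so outside the rule, was in domains of all sets. The domain was 2275 (DMSO) and 8030 kb (dTAG) wide in mESCs, and 5580 and 8715 kb wide in 2CLCs.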
